A study of Mus musculus with 12 samples.

Results

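The 9 genes described here mark microglia in their resting state: P2ry12, P2ry13, Gpr34, Cx3cr1, Siglech, Fcrls, Tmem119, Olfml3 and Sall1. They are 9 of the 21956 genes in the deposited table, where 8 were found by symbol, and Fcrls, which the table lists under the symbol Fcrl2, was found by its Ensembl identifier ENSMUSG00000015852. All 9 passed the filter on low counts in every comparison. The libraries were made from poly(A) RNA of mouse brain tissue, with 3 mice in each of 4 groups. Sham-Fabp4fl_fl and ICH-Fabp4fl_fl mice carried the floxed Fabp4 gene. Sham-Fabp4CKO and ICH-Fabp4CKO mice carried it together with 1 allele of tamoxifen-inducible Cre (creERT2) driven by Tmem119, and received tamoxifen for 7 days with surgery 14 days after the last dose, a design meant to delete Fabp4 from cells that express Tmem119. In the ICH groups an intracerebral hemorrhage was induced with collagenase in the right striatum, and tissue next to the hematoma was taken after 48 h, while sham mice had the same surgery without collagenase and gave tissue of the same region. Age and sex of the floxed mice, and whether Fabp4fl_fl mice also received tamoxifen, are not given in the sources used here. Tmem119 is both one of the 9 genes and the Cre driver locus, and any comparison of the genotypes also compares mice with and without the Cre allele.

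Microglia are the resident macrophages of the brain. In the healthy brain they hold a characteristic set of transcripts that depends on TGF-beta signaling from their surroundings and on transcription factors such as Sall1, and in mouse models of injury and neurodegeneration many of these transcripts fall in microglia that turn to a phagocytic state. P2ry12 and P2ry13 are receptors for ADP, a signal from damaged cells that P2ry12 turns into process extension and migration, and Gpr34 is a receptor for lysophosphatidylserine. Cx3cr1 binds fractalkine (Cx3cl1), which neurons carry. Siglech is a sialic acid-binding lectin, Fcrls an Fc receptor-like scavenger receptor, Tmem119 a membrane protein, Olfml3 a secreted olfactomedin-domain protein, and Sall1 a zinc-finger transcription factor that maintains microglial identity. Bulk tissue was sequenced, so fewer cells of a type and less RNA per cell cannot be told apart, nor can microglia and other cells that hold the same transcript.

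The promoters of 7 of the 9 genes are in the RefSeq table used here, while Gpr34 and Tmem119 had no entry. Of these, 4 are printed because they span the responses below: Fcrls had the largest increase after ICH, Siglech was the 1 gene not called, and P2ry12 and P2ry13 are neighbouring ADP receptor genes on chromosome 3 with different increases. Each line holds the 250 bases before the RefSeq transcription start in GRCm38.p6, 5′ to 3′ on the gene's strand. Capitals mark GAGGAA, 1 form of the sites for the myeloid transcription factor PU.1, searched on both strands (TTCCTC on the other). Shorter or variant forms were not searched.
Fcrls, chr3:87263525-87263774, minus strand: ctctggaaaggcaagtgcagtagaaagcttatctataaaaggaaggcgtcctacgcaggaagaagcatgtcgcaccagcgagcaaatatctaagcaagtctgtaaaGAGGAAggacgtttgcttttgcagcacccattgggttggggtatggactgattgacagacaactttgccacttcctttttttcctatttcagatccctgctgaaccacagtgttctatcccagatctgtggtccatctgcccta
P2ry13, chr3:59210883-59211132, minus strand: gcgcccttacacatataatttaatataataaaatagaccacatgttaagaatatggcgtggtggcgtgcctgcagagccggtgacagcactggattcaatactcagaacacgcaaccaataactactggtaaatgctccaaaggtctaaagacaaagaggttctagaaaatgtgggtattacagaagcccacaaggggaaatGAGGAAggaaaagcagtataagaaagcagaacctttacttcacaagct
P2ry12, chr3:59262986-59263235, minus strand: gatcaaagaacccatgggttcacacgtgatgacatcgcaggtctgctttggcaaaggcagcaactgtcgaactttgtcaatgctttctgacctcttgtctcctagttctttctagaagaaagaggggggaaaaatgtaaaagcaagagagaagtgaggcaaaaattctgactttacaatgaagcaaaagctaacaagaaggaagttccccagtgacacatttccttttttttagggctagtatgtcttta
Siglech, chr7:55767934-55768183, plus strand: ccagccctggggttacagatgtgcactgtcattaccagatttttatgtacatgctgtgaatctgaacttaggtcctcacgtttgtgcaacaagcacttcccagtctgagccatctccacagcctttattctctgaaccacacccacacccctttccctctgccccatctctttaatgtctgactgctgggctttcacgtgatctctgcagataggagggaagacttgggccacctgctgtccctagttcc
The motif was found in 2 of the 7 genes, once in Fcrls and once in P2ry13. It occurs in 23.3% of the 32851 promoter windows of the same length. A match is a description of the letters and not of a bound site.

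The 12 libraries held 15650813 to 22406216 estimated counts. Fabp4 had 46, 63 and 24 counts in ICH-Fabp4fl_fl and 5, 3 and 10 in ICH-Fabp4CKO, 2, 1 and 2 in Sham-Fabp4fl_fl and 0 in every Sham-Fabp4CKO library. The log2 difference between the genotypes after ICH, -2.94 (standard error 0.62), was not called with edgeR (adjusted p = 0.295) and was called with DESeq2 (-2.995, adjusted p = 0.00222) and in a fit of all 12 libraries (-3.01, adjusted p = 0.0418). One library stood apart in mitochondrial transcripts (ICH-Fabp4fl_fl mouse 1, 16.3% of counts against 7.90 to 11.9% in the others) and another in 4 Y-linked genes (ICH-Fabp4CKO mouse 1, 1 count in all against 1302 to 2251). Without either of these libraries 8 of the 9 genes were still called higher after ICH in its genotype, and none was called between the genotypes. In Y-linked counts ICH-Fabp4CKO was mixed, as a group with mice of both sexes would be, and the other groups were not. The labels do not give sex. No source used here says whether the mice of a group came from separate litters or experiments, so that p-values measure only the spread between these mice, which may be technical.

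In sham tissue all 9 genes were measured well above the counting floor. Levels are given in CPM, the count scaled to the size of its library with TMM, which corrects that size for composition. Divided by the exon length of each gene, P2ry12 (14.2 ± 0.808 CPM per kb; SD, n = 3), Cx3cr1 (13.9 ± 0.618), Fcrls (12.1 ± 3.27) and Tmem119 (11.8 ± 1.62) were the highest in Sham-Fabp4fl_fl, and the ranges of each neighbouring pair among these 4 overlapped. P2ry13 (6.82 ± 0.573), Gpr34 (5.81 ± 0.129), Sall1 (5.65 ± 0.0915), Olfml3 (4.43 ± 0.558) and Siglech (3.29 ± 0.251) followed. Here the 3 mice did not overlap between P2ry13 and Gpr34, between Sall1 and Olfml3, or between Olfml3 and Siglech. After ICH the order of levels per length changed: in ICH-Fabp4fl_fl, Fcrls came first at 162.5 ± 54.3 CPM per kb, Cx3cr1 second at 55.4 ± 3.85, and P2ry12 was the fifth of the 9 at 27.7 (20.2 to 39.0 in the 3 mice). The exon lengths are those of GENCODE M21. With the longest principal transcript in place of all exons, Olfml3 and Siglech exchanged the last places in Sham-Fabp4fl_fl, and Tmem119 and Olfml3, and likewise Sall1 and Siglech, exchanged neighbouring places in ICH-Fabp4fl_fl.

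The first question was what the hemorrhage does to these genes where Fabp4 is intact. Of the 9 genes, 8 rose in ICH-Fabp4fl_fl against Sham-Fabp4fl_fl, none fell, and the median log2 fold change was 1.70. The range ran from 0.73 for Sall1 to 3.70 for Fcrls. Of all 14719 genes tested, 26.2% were called higher and 19.3% lower, and the median was 0.02. In CPM all 9 genes were higher in each of the 3 mice with ICH than in each sham mouse, a pattern that 34.4% of all genes showed. A gene was called, and is said to have risen or fallen, where its p-value from the quasi-likelihood test of edgeR, adjusted by the Benjamini-Hochberg method over all genes tested, was under 0.05. SE is the standard error of a log2 fold change.

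**Figure D1:**
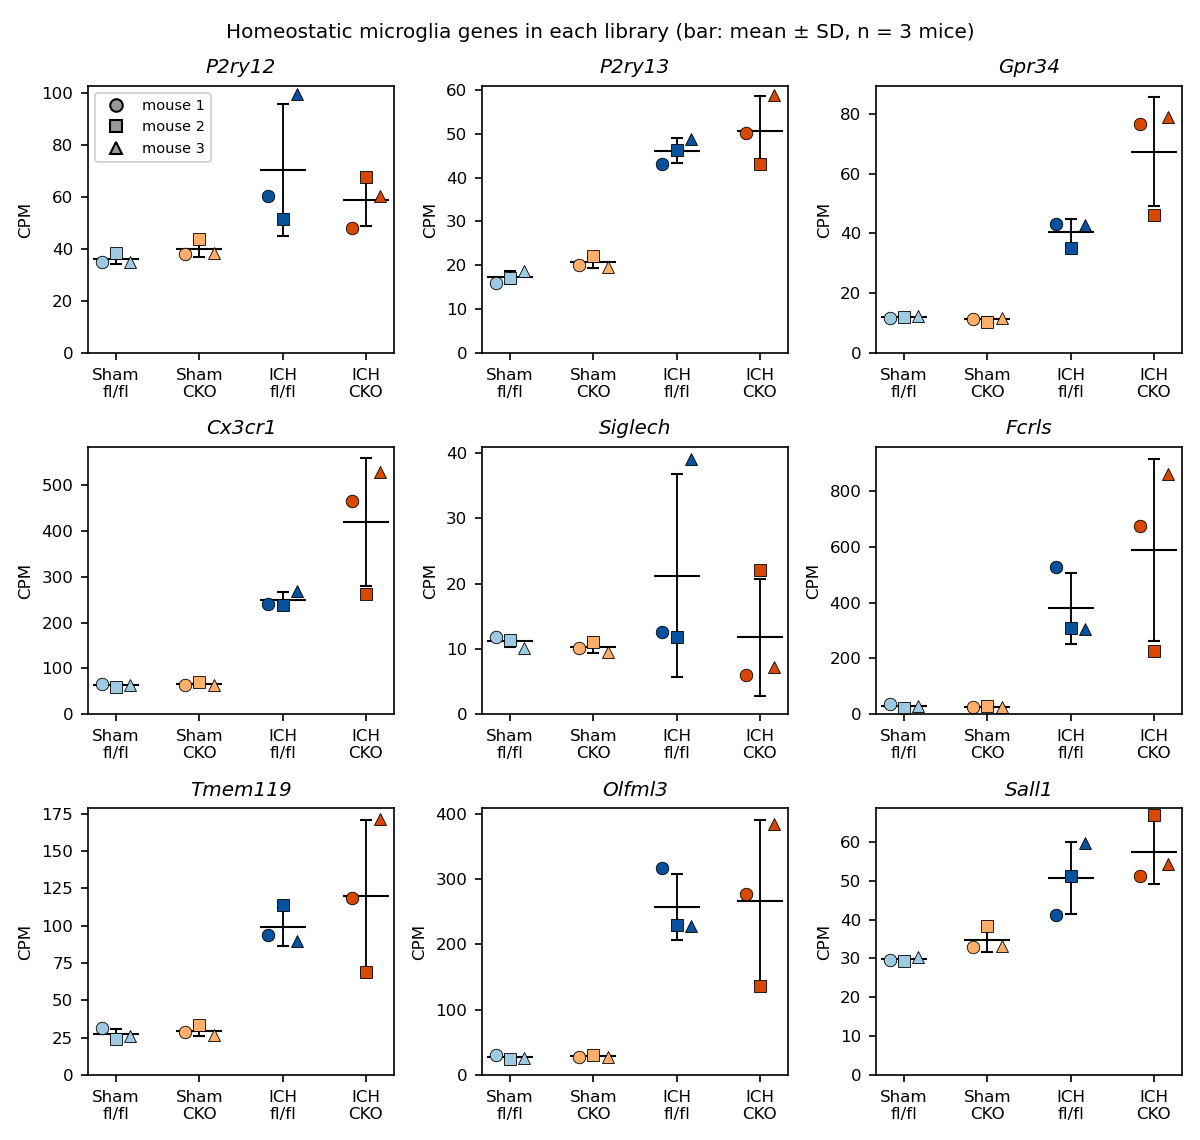
Level (CPM, linear axis from 0) of each of the 9 genes in each library by group; symbols mark mice 1 to 3, the bar is the mean and the whisker the SD (n = 3). All 9 genes lie higher in the 3 ICH-Fabp4fl_fl mice than in the 3 Sham-Fabp4fl_fl mice, and Siglech in ICH-Fabp4CKO lies on both sides of its sham level.

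Among the receptors, P2ry12 was 34.9, 38.6 and 35.1 CPM in the Sham-Fabp4fl_fl mice and 60.4, 51.4 and 99.3 CPM in the ICH-Fabp4fl_fl mice. The ICH mice lay above the sham mice, with mouse 3 far above the other two. The log2 fold change of P2ry12 was 0.93 (SE 0.26, adjusted p = 0.0241, edgeR), and it missed the threshold when any 1 of the 3 sham libraries was left out (0.85 to 0.93, adjusted p 0.0734 to 0.0807, against 0.00617 to 0.0807 over all 12 alternatives). Over all genes the number called higher also fell, from 3862 to 2947, 2633 and 3032 without sham mouse 1, 2 and 3. P2ry13 was 15.9, 17.1 and 18.7 CPM in sham and 43.1, 46.3 and 48.9 CPM after ICH. These 3 mice with ICH were close to each other, and the log2 fold change was 1.38 (SE 0.14, adjusted p = 5.58e-04, edgeR).

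Gpr34 was 11.9, 12.2 and 12.4 CPM in the sham mice and 43.1, 35.3 and 42.8 CPM in the ICH mice. The groups were far apart against their spread, with a log2 fold change of 1.70 (SE 0.14, adjusted p = 3.81e-04, edgeR). Cx3cr1, the fractalkine receptor, was 64.7, 59.4 and 63.6 CPM in sham and 240.0, 239.1 and 269.5 CPM after ICH. It too separated cleanly, with a log2 fold change of 1.96 (SE 0.15, adjusted p = 3.41e-04, edgeR).

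Fcrls and Olfml3 had the largest increases. Fcrls was 36.0, 20.7 and 27.9 CPM in sham and 525.7, 309.1 and 303.3 CPM after ICH, a log2 fold change of 3.70 (SE 0.31, adjusted p = 3.61e-04, edgeR). ICH mouse 1, the library with the most mitochondrial transcripts, was the highest, and without it the change was still called. Olfml3 was 31.2, 24.6 and 26.2 CPM in sham and 316.1, 229.5 and 227.3 CPM after ICH, a log2 fold change of 3.19 (SE 0.19, adjusted p = 2.81e-04, edgeR). In both genes mouse 1 was high and mice 2 and 3 were close together. Tmem119 was 31.4, 24.1 and 26.3 CPM in sham and 93.7, 113.9 and 90.0 CPM after ICH, with a log2 fold change of 1.82 (SE 0.16, adjusted p = 4.00e-04, edgeR).

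Siglech was the 1 gene of the 9 not called in either genotype. Sall1 was 29.7, 29.3 and 30.3 CPM in sham and 41.2, 51.2 and 59.7 CPM after ICH. The sham mice were nearly the same and the ICH mice spread, with a log2 fold change of 0.73 (SE 0.17, adjusted p = 0.0131, edgeR). The Sall1 call was lost without sham mouse 1, sham mouse 2 or ICH mouse 2 (0.68 to 0.69, adjusted p 0.0544 to 0.0634, against 0.00279 to 0.0634 over all 12 alternatives). Siglech was 11.8, 11.4 and 10.2 CPM in sham and 12.6, 11.8 and 39.1 CPM after ICH. ICH mouse 3 was far above the sham level, and mice 1 and 2 were just above it. The log2 fold change of 0.91 (SE 0.47, 95% interval -0.19 to 2.02) was not called (adjusted p = 0.148, edgeR), and without ICH mouse 3 it was 0.07.

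The same comparison in Fabp4CKO mice gave 8 of 9 genes higher and none lower, with a median log2 fold change of 2.02, where 24.5% of the 14737 genes tested were called higher and 11.1% lower and the median was 0.01. In 8 of the 9 the 3 ICH-Fabp4CKO mice lay above the 3 Sham-Fabp4CKO mice, against 33.2% of all genes that were higher in all 3 mice and 28.9% that were lower. Fcrls was 24.3, 29.4 and 26.3 CPM in Sham-Fabp4CKO and 676.2, 225.3 and 859.3 CPM in ICH-Fabp4CKO. Mouse 2 was the lowest of the mice with ICH by far, and the log2 fold change of Fcrls was 4.46 (SE 0.53, adjusted p = 0.00589, edgeR). Olfml3 was 27.4, 30.8 and 27.8 CPM in sham and 277.2, 136.0 and 384.2 CPM after ICH, a log2 fold change of 3.22 (SE 0.39, adjusted p = 0.00589, edgeR). Mouse 2 was again the lowest of the 3 mice with ICH.

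Cx3cr1 was 64.2, 69.1 and 63.1 CPM in Sham-Fabp4CKO and 466.7, 262.7 and 528.9 CPM in ICH-Fabp4CKO, a log2 fold change of 2.68 (SE 0.28, adjusted p = 0.00540, edgeR). Gpr34 was 11.5, 10.3 and 11.9 CPM in sham and 76.7, 46.3 and 79.0 CPM after ICH, a log2 fold change of 2.59 (SE 0.24, adjusted p = 0.00478, edgeR). In both receptor genes mouse 2 stood at the level of the ICH-Fabp4fl_fl mice or just above it, and mice 1 and 3 higher. Tmem119 was 28.5, 33.4 and 26.8 CPM in sham and 118.8, 69.2 and 171.5 CPM after ICH, with a log2 fold change of 2.02 (SE 0.33, adjusted p = 0.0100, edgeR). The Tmem119 call was lost when any 1 sham library was left out (1.95 to 2.11, adjusted p 0.0521 to 0.0571, against 9.29e-07 to 0.0571 over all 12 alternatives). Such losses were general in this genotype: over all genes the number called higher fell from 3605 to 796, 767 and 701 without sham mouse 1, 2 and 3.

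The ADP receptor genes moved less. P2ry13 was 20.1, 22.2 and 19.7 CPM in Sham-Fabp4CKO and 50.2, 43.1 and 58.7 CPM in ICH-Fabp4CKO, a log2 fold change of 1.298 (SE 0.15, adjusted p = 0.00582, edgeR). P2ry12 was 38.1, 43.9 and 38.4 CPM in sham and 47.98, 67.6 and 60.4 CPM after ICH. The ICH mice lay above the sham mice but close to them, with a log2 fold change of 0.55 (SE 0.16, adjusted p = 0.0406, edgeR). That call was lost without any 1 sham library or without ICH mouse 3 (0.50 to 0.62), and also with library totals in place of TMM (0.47) and with all 12 libraries in one fit (0.55), with adjusted p-values of 0.00814 to 0.140 over the 12 alternatives. Sall1 was 32.8, 38.3 and 33.3 CPM in sham and 51.2, 66.8 and 54.2 CPM after ICH, a log2 fold change of 0.72 (SE 0.15, adjusted p = 0.0163, edgeR), and its call was lost without any 1 sham library (0.68 to 0.79).

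Siglech behaved differently from mouse to mouse. It was 10.1, 11.1 and 9.52 CPM in Sham-Fabp4CKO and 5.95, 22.1 and 7.27 CPM in ICH-Fabp4CKO. Mice 1 and 3 lay below all sham mice of their genotype and mouse 2 above them, so that the log2 fold change of 0.21 (SE 0.50, 95% interval -1.01 to 1.42, adjusted p = 0.748, edgeR) was not called. Without mouse 2 it was -0.63 and called lower (adjusted p = 0.0149, against 0.0149 to 0.941 over the 12 alternatives).

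**Figure D2:**
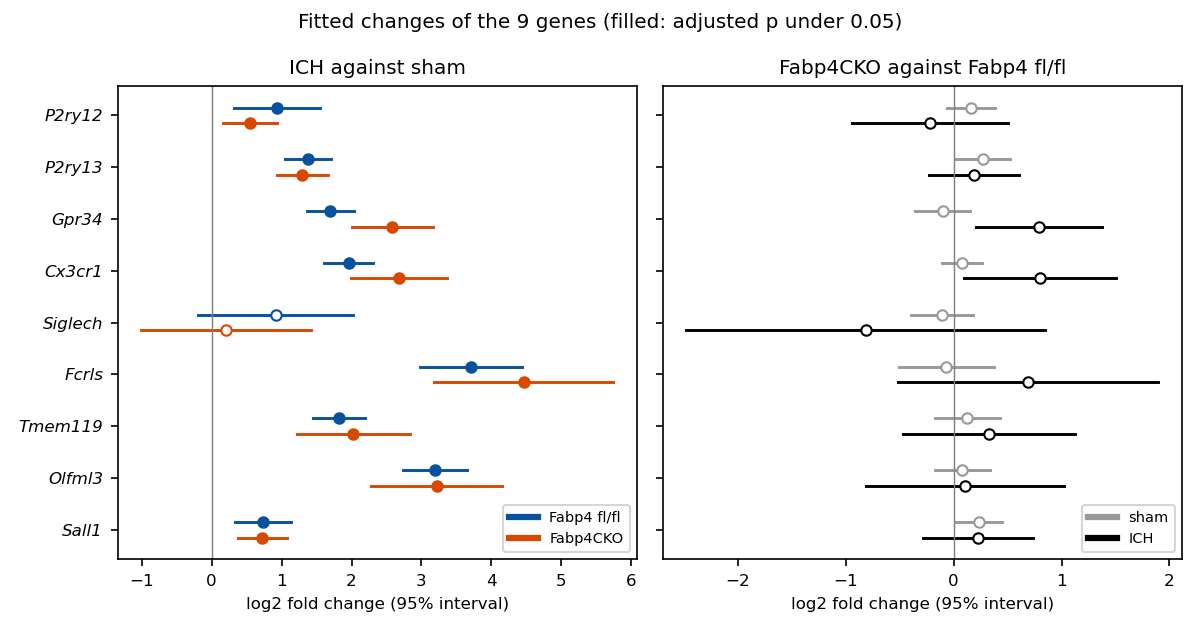
Fitted log2 fold change of each gene (horizontal axis, point) with its 95% interval (line), for ICH against sham in each genotype (left) and for Fabp4CKO against Fabp4fl_fl in sham and after ICH (right); filled points had an adjusted p under 0.05. On the left 8 of 9 points are filled in each genotype, Siglech being open; on the right every point is open, and the after-ICH intervals of Gpr34 and Cx3cr1 lie above 0.

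The next question was whether these genes differ with microglial Fabp4 after ICH. None of the 9 was called between ICH-Fabp4CKO and ICH-Fabp4fl_fl. With edgeR 0% of the 14600 genes tested were called in either direction, although 1777 of them, and 2 of the 9 (Gpr34 and Cx3cr1), had an unadjusted p under 0.05. DESeq2 called 255 genes higher and 323 lower and a fit of all 12 libraries 154 and 208, none of the 9 among them. Gpr34 differed by 0.79 on the log2 scale (SE 0.24, interval 0.21 to 1.37, unadjusted p = 0.0156, adjusted p = 0.341, edgeR) and was higher in all 3 ICH-Fabp4CKO mice than in all 3 ICH-Fabp4fl_fl mice, as were 8.30% of all genes. Cx3cr1 differed by 0.80 (SE 0.29, interval 0.10 to 1.51, unadjusted p = 0.0316, adjusted p = 0.365, edgeR), with mouse 2 of ICH-Fabp4CKO inside the range of the other group. For the other 7 the intervals held 0: Fcrls 0.69 (-0.51 to 1.90), Tmem119 0.33 (-0.47 to 1.13), Sall1 0.23 (-0.28 to 0.73), P2ry13 0.19 (-0.23 to 0.60), Olfml3 0.10 (-0.81 to 1.02), P2ry12 -0.22 (-0.94 to 0.50) and Siglech -0.82 (-2.48 to 0.85). Each of these 7 intervals leaves room for a change of more than 1.5-fold. The sign turned when 1 mouse was left out for P2ry12 (0.11 without ICH-Fabp4fl_fl mouse 3), Tmem119 (-0.02 without ICH-Fabp4CKO mouse 3) and Olfml3 (-0.26 without ICH-Fabp4CKO mouse 3).

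Without ICH the 2 genotypes were close. None of the 9 was called between Sham-Fabp4CKO and Sham-Fabp4fl_fl, where 0% of the 14395 genes tested were called higher and 0.111% lower. P2ry13 (0.27, interval 0.02 to 0.52) and Sall1 (0.24, interval 0.02 to 0.45) had unadjusted p-values of 0.0367 and 0.0333 (adjusted 0.484 and 0.481, edgeR). Both were higher in the 3 Sham-Fabp4CKO mice than in the 3 Sham-Fabp4fl_fl mice, as were 5.97% of all genes, while 8.86% were lower in all 3. Tmem119, whose locus carries the Cre allele in these mice, differed by 0.13 (SE 0.13, interval -0.17 to 0.43). The differences of the other 6 lay between -0.11 for Siglech and 0.16 for P2ry12.

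Whether the change with ICH itself differed between the genotypes was tested as an interaction over all 12 libraries. None of the 9 was called, and of 15089 genes tested 0.0133% were called higher and 0.00663% lower. Gpr34 had the largest interaction of the 9: its log2 increase was 0.85 larger in Fabp4CKO (SE 0.26, interval 0.27 to 1.43, unadjusted p = 0.00831, adjusted p = 0.332, edgeR), followed by Siglech at -0.73 (interval -2.36 to 0.91), Fcrls at 0.71 (-0.58 to 2.00) and Cx3cr1 at 0.68 (0.02 to 1.34, unadjusted p = 0.0437). Without ICH-Fabp4CKO mouse 2 the interactions of Gpr34 (1.06) and Cx3cr1 (0.93) were called, with adjusted p-values of 0.0229 and 0.0286, while 260 genes in all were then called higher and 111 lower. Over the 17 alternatives the adjusted p ran from 0.0229 to 0.644 for Gpr34 and from 0.0286 to 0.723 for Cx3cr1.

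Within each ICH group the 9 genes did not move together from mouse to mouse. ICH-Fabp4fl_fl mouse 3 had the highest P2ry12, Siglech and Sall1 of its group, at 2.74, 3.52 and 2.01 times the Sham-Fabp4fl_fl mean. It also had the highest Cx3cr1 and P2ry13, at 4.31 and 2.83 times. Its Fcrls and Olfml3, at 10.8 and 8.32 times, were the lowest but nearly level with those of mouse 2 (10.96 and 8.40 times). ICH-Fabp4CKO mouse 2 likewise had the highest P2ry12, Siglech and Sall1 of its group, at 1.69, 2.16 and 1.92 times the Sham-Fabp4CKO mean. It had the lowest Fcrls, Olfml3, Cx3cr1, Gpr34, Tmem119 and P2ry13, for example 8.45 times the sham mean for Fcrls where mice 1 and 3 had 25.4 and 32.2 times. The coefficient of variation among the 3 mice was 1.62 to 27.1% for the 9 genes in Sham-Fabp4fl_fl, 4.90 to 11.6% in Sham-Fabp4CKO, 6.25 to 73.3% in ICH-Fabp4fl_fl and 14.4 to 76.2% in ICH-Fabp4CKO, and Siglech varied most in both ICH groups.

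**Figure D3:**
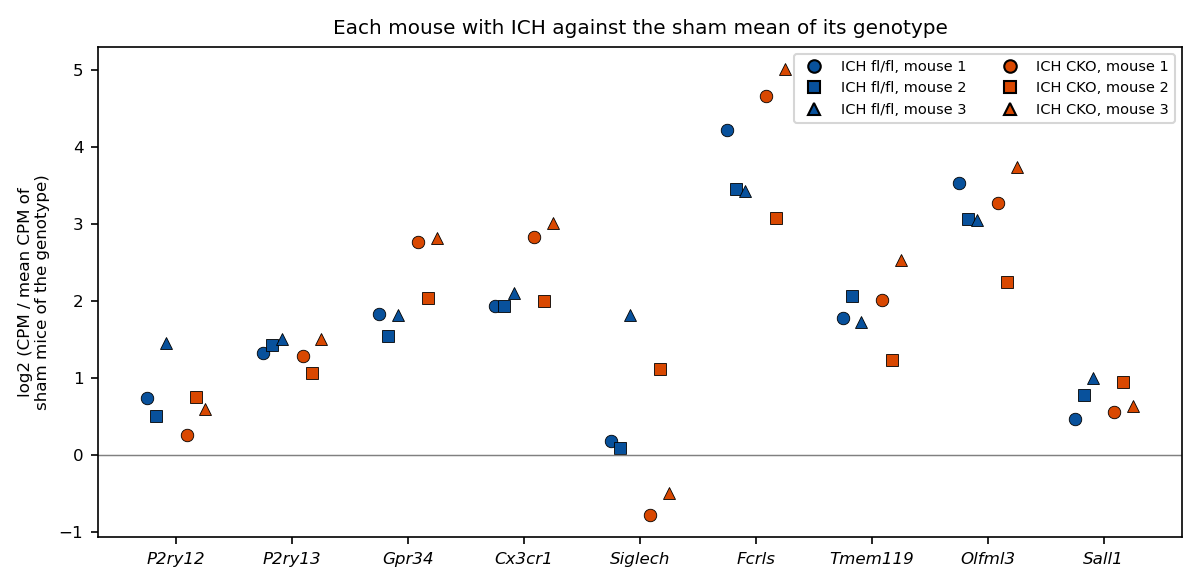
Level of each gene in each mouse with ICH relative to the mean of the sham mice of its genotype (vertical axis, log2 scale, 0 is the sham mean); colors mark the genotype and symbols the mouse. ICH-Fabp4fl_fl mouse 3 (blue triangle) and ICH-Fabp4CKO mouse 2 (orange-red square) are the highest of their groups for P2ry12, Siglech and Sall1. They are the lowest for Fcrls and Olfml3, where ICH-Fabp4fl_fl mice 2 and 3 are nearly level. For Cx3cr1 and P2ry13 ICH-Fabp4fl_fl mouse 3 is the highest of its group and ICH-Fabp4CKO mouse 2 the lowest.

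Markers of other cells moved with the same 2 mice. The summed CPM of 12 genes of infiltrating monocytes and macrophages was 2534, 1559 and 703.3 in ICH-Fabp4fl_fl mice 1 to 3 and 2745, 566.2 and 3428 in ICH-Fabp4CKO mice 1 to 3, so that the same 2 mice were the lowest of their groups. It was 83.8 to 112.9 in the sham libraries. The sum of 11 neuronal genes was 1865, 3012 and 4788 in ICH-Fabp4fl_fl and 2588, 5073 and 1736 in ICH-Fabp4CKO, with the same 2 mice the highest, against 4979 to 6830 in sham. The single neuronal genes differed: their log2 fold changes with ICH ran from -3.83 to -0.15 in Fabp4fl_fl and from -1.27 to 1.45 in Fabp4CKO. Of the 11, 4 and 1 were called lower, against 19.3% and 11.1% of all genes. Between the genotypes after ICH they ran from -0.82 to 3.41, and none was called. No monocyte or neuronal gene on these lists was at 0 in a library with ICH, and 1 (Chil3) was at 0 in all Sham-Fabp4CKO libraries. The part of these cells in the levels of the 9 genes was not tested.

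Other cell types that can hold these transcripts were looked at in the same way. The 9 markers of platelets, T cells and NK cells, of which platelets also express P2ry12 and NK and T cells Cx3cr1, summed to 1.06 to 2.58 CPM in sham, 10.1 to 17.9 CPM in ICH-Fabp4fl_fl and 5.58 to 9.18 CPM in ICH-Fabp4CKO. In Sham-Fabp4CKO Cd8a, Klrb1c and Ncr1 had 0 counts in all 3 libraries. The 7 markers of border-associated macrophages summed to 13.8 to 22.2 CPM in sham, 148.4 to 431.6 CPM in ICH-Fabp4fl_fl and 130.7 to 1423 CPM in ICH-Fabp4CKO, with none at 0 in a whole group. The 11 neutrophil markers summed to 6.01 to 14.9, 57.0 to 123.2 and 77.9 to 389.2 CPM in the same order, and Ly6g, which defines neutrophils in mice, had 0 counts in all ICH-Fabp4fl_fl libraries. Of the 7 border-associated macrophage markers 4 were called higher with ICH in Fabp4fl_fl, with log2 fold changes from 0.08 to 6.76. In Fabp4CKO 6 were called higher, with changes from -0.84 to 6.925, and 1 was lower in all 3 mice. Of all genes tested 26.2% and 24.5% were called higher in the 2 genotypes, and 28.9% were lower in all 3 mice in Fabp4CKO. The 6 endothelial markers summed to 493.6 to 1036 CPM in ICH-Fabp4fl_fl and 275.1 to 337.7 CPM in ICH-Fabp4CKO, and 6 oligodendrocyte markers to 18430 to 28450 and 7137 to 11460 CPM, so that the ICH groups did not overlap on these lists. In sham these 2 sums were 208.4 to 257.2 and 8403 to 14860 CPM. All 6 genes of each of these 2 lists were lower in the 3 ICH-Fabp4CKO mice than in the 3 ICH-Fabp4fl_fl mice, as were 11.5% of all genes. The 6 astrocyte markers summed to 5837 to 7256 CPM in ICH-Fabp4fl_fl and 5338 to 7337 CPM in ICH-Fabp4CKO. With edgeR no gene of these lists was called between the genotypes after ICH, whereas DESeq2 called the neutrophil genes S100a8 (2.56, adjusted p = 0.0489) and S100a9 (2.94, adjusted p = 0.0256) higher in ICH-Fabp4CKO. The part of these differences in the genotype comparison of the 9 genes was not tested.

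Another list held 18 further genes of homeostatic microglia. In Fabp4fl_fl 13 of the 18 rose after ICH and none fell, with a median log2 fold change of 1.77, and in Fabp4CKO 13 rose and none fell, with a median of 2.30. The strongest was P2ry6, the UDP receptor that triggers microglial phagocytosis, at 3.98 (SE 0.36) and 4.56 (SE 0.58). The lowest value in Fabp4fl_fl was that of Mef2c, a transcription factor of microglia and neurons, at -0.45 (adjusted p = 0.118, edgeR), which was called without ICH-Fabp4fl_fl mouse 3 (-0.62, adjusted p = 0.0361). The lowest in Fabp4CKO was that of Slc2a5, the fructose transporter found in the brain in microglia, at -0.79 (adjusted p = 0.181, edgeR; 0.46 in Fabp4fl_fl, adjusted p = 0.375), which was called without ICH-Fabp4CKO mouse 2 (-1.45, adjusted p = 0.00133). Adgrg1 was at -0.12 and -0.48 (adjusted p = 0.515 and 0.0998, edgeR), and in Fabp4CKO it was called lower with DESeq2 (adjusted p = 0.0456), in a fit of all 12 libraries (0.0403) and without ICH-Fabp4CKO mouse 2 (-0.71, adjusted p = 0.00100). Slc2a5 was 3.87, 5.86 and 11.2 CPM in ICH-Fabp4fl_fl and 2.72, 6.34 and 1.97 CPM in ICH-Fabp4CKO. Crybb1, a crystallin gene of homeostatic microglia, was 4.57, 4.49 and 8.34 CPM and 1.62, 4.26 and 2.08 CPM. In both genes mouse 3 of the first group and mouse 2 of the second were the highest, as in Siglech. Both had the most negative differences of this list between the genotypes after ICH, at -0.89 for Slc2a5 and -1.08 for Crybb1, and neither was called (adjusted p = 0.568 and 0.426, edgeR).

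A list of 16 genes that microglia share with blood-derived macrophages had larger median changes. All 16 were called higher in each genotype, with a median log2 fold change of 3.28 in Fabp4fl_fl and 4.47 in Fabp4CKO. They ran from Mertk, an engulfment receptor, at 1.29 and 2.12 to Cd68, a lysosomal glycoprotein of phagocytes, at 4.74 and 6.69. Csf1r, the receptor on which microglia depend for survival, rose by 1.96 (SE 0.17) and 2.44 (SE 0.22), and Aif1, which encodes the microglial stain IBA1, by 3.14 and 3.50. Of 18 disease-associated microglia genes, 15 and 18 were called higher. They included Apoe, which carries lipids, at 0.97 (SE 0.28) and 3.01 (SE 0.47), and Lgals3 at 6.56 and 8.73. The Apoe call was lost in Fabp4fl_fl without sham mouse 2 or 3 or ICH mouse 1 or 2 (0.74 to 0.99, adjusted p 0.0538 to 0.125) and in Fabp4CKO without any 1 sham library (adjusted p 0.0545 to 0.0561), as was that of Mertk in Fabp4CKO (adjusted p 0.0599 to 0.0616). Between the genotypes after ICH edgeR called none of the 18. DESeq2 called Apoe (2.12, adjusted p = 7.73e-04), Clec7a (3.28, 6.70e-04), Gpnmb (3.10, 0.00664) and Cst7 (1.61, 3.28e-04) higher in ICH-Fabp4CKO. A fit of all 12 libraries also called Apoe (2.08, adjusted p = 0.0338, edgeR). All 12 monocyte genes were called higher in each genotype, and Ccr2, the chemokine receptor that defines inflammatory monocytes, went from at most 0.675 CPM in any sham library to 9.78 to 47.5 CPM in the libraries with ICH.

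**Figure D4:**
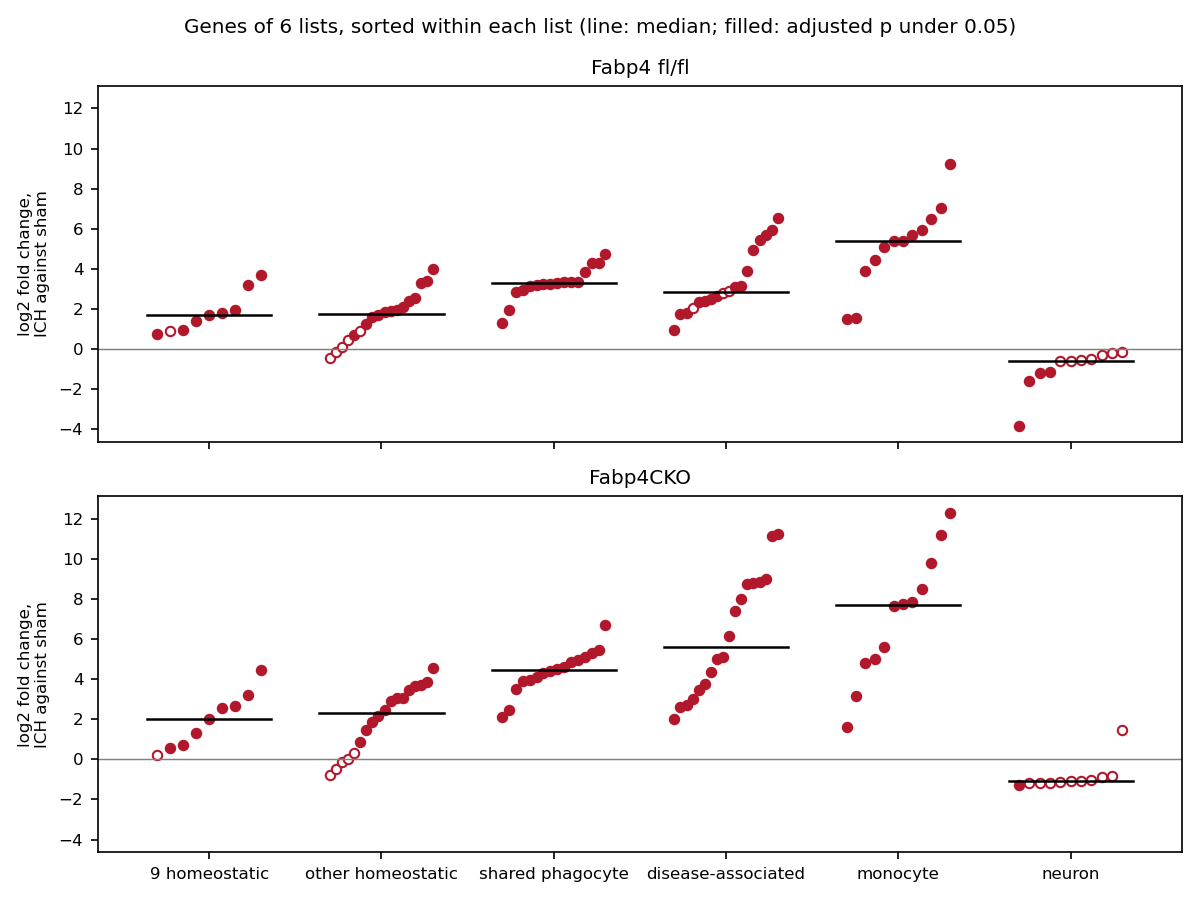
Fitted log2 fold change, ICH against sham, of each tested gene on 6 lists (points, sorted within a list; line, median; filled, adjusted p under 0.05) in Fabp4fl_fl (top) and Fabp4CKO (bottom). The 9 homeostatic genes have medians of 1.70 and 2.02, the 16 shared phagocyte genes of 3.28 and 4.47; monocyte and disease-associated genes with 3 counts or fewer in every sham library of the genotype have fitted values that are not bounds.

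Set against the 16 shared phagocyte genes in the same library, most of the 9 were lower after ICH. The mean log2 CPM of the 16 went from 4.41 to 7.72 in Fabp4fl_fl and from 4.25 to 8.435 in Fabp4CKO. A gene that rose less than this, or did not change, is therefore lower on this scale, also where its own level rose. The share of all genes that were lower on it was not computed. The mean log2 CPM of the 9 minus that of the 16 was -0.16, 0.31 and 0.47 in the Sham-Fabp4fl_fl mice and -1.77, -1.33 and -0.78 in the ICH-Fabp4fl_fl mice. It was 0.47, 0.41 and 0.42 in Sham-Fabp4CKO and -2.12, -1.08 and -2.42 in ICH-Fabp4CKO. The groups did not overlap in either genotype, and Sham-Fabp4fl_fl mouse 1 was the lowest sham mouse, with the highest mean of the 16 phagocyte genes in sham (log2 CPM 4.86 against 4.15 to 4.38). On this relative scale the difference between the ICH and sham means was largest for Siglech (-2.61 in Fabp4fl_fl and -4.23 in Fabp4CKO), Sall1 (-2.56 and -3.47) and P2ry12 (-2.41 and -3.65). P2ry13 (-1.89 and -2.90), Gpr34 (-1.59 and -1.65), Tmem119 (-1.45 and -2.25) and Cx3cr1 (-1.32 and -1.56) were lower as well, with every mouse with ICH below every sham mouse of its genotype. Fcrls and Olfml3 were the exceptions: Fcrls was 0.42 higher in Fabp4fl_fl and overlapped with sham in Fabp4CKO (0.07), and Olfml3 overlapped in Fabp4fl_fl (-0.09) and was lower in Fabp4CKO (-1.10). These values are descriptions with no test. The 16 genes are also expressed by infiltrating cells, so that a lower level per microglial cell and a larger share of other phagocytes cannot be told apart here.

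**Figure D5:**
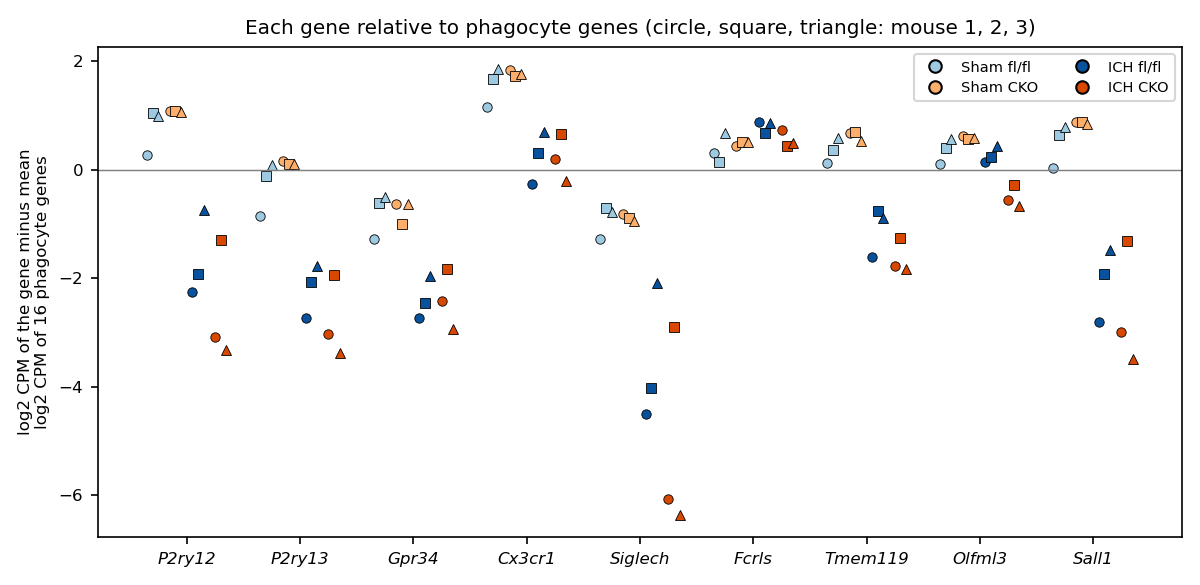
Log2 CPM of each gene minus the mean log2 CPM of 16 genes shared by mononuclear phagocytes, per library (vertical axis, log2 units; colors, group; symbols, mouse). For 7 genes every mouse with ICH lies below every sham mouse of its genotype. Fcrls lies above sham in ICH-Fabp4fl_fl and overlaps with it in ICH-Fabp4CKO. Olfml3 overlaps with sham in ICH-Fabp4fl_fl and lies below it in ICH-Fabp4CKO. The 16 genes rose after ICH, so that a gene with a smaller increase, or none, lies lower here. The share of all genes that lie lower was not computed.

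Genes that control microglial identity were measured beside their target Sall1 and the rest. Of 17 transcription factors and members of TGF-beta and CSF1R signaling, 11 rose and 1 fell after ICH in Fabp4fl_fl (median log2 fold change 1.10), and 12 rose and none fell in Fabp4CKO (median 2.13). Spi1, which encodes PU.1, rose by 3.75 and 4.27, Runx1 by 3.68 and 5.64, and Irf8 by 3.33 and 4.12. Tgfb1, the ligand on which homeostatic microglia depend, rose by 3.36 and 3.99 and its receptor gene Tgfbr1 by 1.09 and 2.80. Between the genotypes after ICH Tgfbr1 was not called in the main fit. It was called higher in ICH-Fabp4CKO with DESeq2 (1.305, adjusted p = 0.0371) and in a fit of all 12 libraries (1.28, adjusted p = 0.0492, edgeR). The 1 gene that fell was Smad2, a mediator of TGF-beta signaling, at -0.39 in Fabp4fl_fl (SE 0.13, adjusted p = 0.0370, edgeR), a call that was lost without any 1 sham library, ICH mouse 1 or ICH mouse 3 (-0.45 to -0.36, adjusted p 0.0551 to 0.0938). Of the ligands of CSF1R, Csf1 rose by 2.16 and 2.13, and Il34, which neurons make, was at -0.24 and -0.78 (adjusted p = 0.519 and 0.0984, edgeR). In Fabp4CKO Il34 was called lower with DESeq2 (adjusted p = 0.0467) and without ICH-Fabp4CKO mouse 2 (-1.18, adjusted p = 0.00131).

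The ligand side of the receptors was looked at last. Of 10 genes for ligands of the 4 G protein-coupled receptors and for enzymes that make or remove them, 5 rose in Fabp4fl_fl and 6 in Fabp4CKO, and none fell. Entpd1, the ectonucleotidase that removes ATP and ADP, rose by 1.59 (SE 0.19) and 1.72 (SE 0.31). Pla1a, a phosphatidylserine phospholipase that makes the Gpr34 ligand, rose by 2.47 and 2.81, and Ctss, a protease that frees fractalkine, by 2.84 and 4.29. In Fabp4CKO the call of Entpd1 was lost without any 1 sham library (adjusted p 0.0560 to 0.0611), and that of Pla1a without any 1 sham library, ICH mouse 1 or ICH mouse 3 (adjusted p 0.0594 to 0.0984). Cx3cl1, the ligand of Cx3cr1, was 511.4, 501.6 and 893.4 CPM in Sham-Fabp4fl_fl and 151.7, 208.4 and 527.4 CPM in ICH-Fabp4fl_fl, and 705.0, 924.7 and 620.9 CPM in Sham-Fabp4CKO against 252.0, 541.7 and 177.9 CPM in ICH-Fabp4CKO. The groups overlapped in Fabp4fl_fl and not in Fabp4CKO, and the log2 fold changes of -1.12 and -1.21 were not called (adjusted p = 0.102 and 0.0675, edgeR), although DESeq2 called both (adjusted p = 0.0293 and 0.0128). Cx3cl1 was highest in the same 2 mice with ICH that had the highest neuronal sums.

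Over all 12 libraries, the non-members whose centered log2 CPM followed the mean profile of the 9 genes most closely were Lpcat2 (root-mean-square difference 0.144 log2 units), Selplg (0.172), Csf1r (0.216), Scamp2 (0.218) and Slco2b1 (0.226), out of 15080 genes. Lpcat2 and Selplg were already on the list of other homeostatic genes. Of the 9 themselves Tmem119 (0.222) and P2ry13 (0.273) lay nearest their own mean profile, and Siglech (1.04) and Fcrls (1.15) farthest. The genes nearest to P2ry12 alone were Clu (0.202), Lmcd1 (0.219), Ltbp1 (0.224), Limd2 (0.225) and Scel (0.237). These likenesses are over 4 groups that differ in injury, and they are given as a description.

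The library kit does not keep the strand, so that reads from a stretch shared by genes on opposite strands cannot be told apart. The overlaps given here are of whole gene spans, and overlap of exons was not examined. P2ry12 and P2ry13 lie on the strand opposite to Med12l, whose mean was 33.7 and 36.2 CPM in Sham-Fabp4fl_fl and Sham-Fabp4CKO and 12.03 and 14.9 CPM in the matching ICH groups. Gpr34 lies opposite to Cask, at 60.6 and 67.8 CPM in sham and 52.0 and 51.6 CPM after ICH. Cx3cr1 overlaps Wdr48 on the opposite strand, at 68.2 and 79.0 CPM in sham and 48.01 and 69.0 CPM after ICH. These 3 genes were lower after ICH in these means, where the 4 receptor genes were higher. Other genes whose spans overlap that of Cx3cr1 differed in direction. On the same strand Csrnp1, at 6.34 and 5.34 CPM in sham and 13.5 and 14.7 CPM after ICH, and Xirp1, at 0.244 and 0.303 CPM in sham and 0.499 and 0.432 CPM after ICH, were higher. Gorasp1, also on the same strand, was lower, at 34.9 and 39.1 CPM in sham and 30.75 and 30.3 CPM after ICH. Ttc21a, on the opposite strand, was lower too, at 5.57 and 6.66 CPM in sham and 1.10 and 3.82 CPM after ICH.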

How the data were processed

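Poly(A) RNA from mouse brain tissue was sequenced in 12 libraries, 3 mice in each of 4 groups named by the sample titles. The authors deposited estimated counts per gene without normalization, 7.36 to 8.69% of them not whole numbers in a library, and they were rounded here. The submitters' processing notes list Bowtie2 2.2.8, HISAT2, StringTie 1.3.1 and DESeq2, and the genome build is not given in the sources used here. Each pair of groups was fitted on its own, and the interaction on the 12 libraries together, by the quasi-likelihood F-test of edgeR 4.0.16 in R 4.3.3. TMM gave the scaling, filterByExpr removed low genes (minimum count 10, minimum total 15), and p-values were adjusted after Benjamini and Hochberg over all genes tested (threshold 0.05). CPM were computed with TMM over the 12 libraries, and log2 CPM with a prior count of 2. The script was tested on simulated data. Fold changes between groups come from the fits and ratios to a sham mean from CPM. Within each group no library was a copy of another.

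The members, the other gene lists and the tests were chosen with earlier results of these data known. Genes named are the 9 members, Fabp4, up to 2 genes at each end of a list in a comparison, genes listed in advance by name (such as Csf1r, Aif1, Spi1, Irf8, Tgfb1, Tgfbr1, Cx3cl1, Il34, Csf1, Entpd1, Apoe and Ccr2) and the 5 nearest profiles. One gene listed by name is not reported here. Smad2 and Pla1a are ends of their lists. The markers Chil3, Ly6g, Cd8a, Klrb1c and Ncr1 and the overlapping genes were named with their values in view. Alternatives were DESeq2 1.42.0, scaling by relative log expression or by library totals alone, no filter on low counts, a replicate block, a single fit of the 12 libraries, a prior count of 0.5, and omission of 1 library at a time. Depth of 15650813 to 22406216 counts limits the precision of low genes, and CPM and zeros carry counting error that no interval here covers. Python 3.11.15 with pandas 2.3.3, numpy 2.4.6 and matplotlib 3.10.9 was used for the rest.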

Additional observations from a re-analysis of the deposited data

How the results depend on the processing

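With Fabp4 intact, 8 of the 9 genes were called higher after ICH under each scaling, filter, tool and fit tried, and 6 to 8 when 1 library was left out. In Fabp4CKO the count was 8 and became 7 with library totals, with the replicate block and with all 12 libraries in one fit, in each case through P2ry12, and 5 to 8 when 1 library was left out, with 0 to 1 called lower. Of the 108 fold changes of the 9 genes under the alternatives in each of these comparisons, 6 lost their call in Fabp4fl_fl and 13 in Fabp4CKO, and 2 turned in sign in Fabp4CKO, both of Siglech. No alternative called any of the 9 between the genotypes in sham or after ICH. For the interaction the count called higher was 0 to 2 when 1 library was left out.

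Log2 fold changes whose range over the left-out libraries crossed 0 were those of Siglech, at -0.63 to 0.51 with ICH in Fabp4CKO. After ICH, CKO against Fabp4fl_fl, they were -0.41 to 0.11 for P2ry12, -0.024 to 0.61 for Tmem119, -0.26 to 0.42 for Olfml3, -0.24 to 0.22 for Aif1 and -0.059 to 0.85 for Ccr2. In sham the range was -0.25 to 0.13 for Fcrls, and for Il34 with ICH in Fabp4fl_fl -0.55 to 0.041. For the interaction they were -0.19 to 0.44 for Tmem119, -0.17 to 0.089 for Sall1, -1.56 to 0.071 for Siglech and -0.39 to 0.29 for Olfml3. The interaction of Olfml3 (-0.02) was also 0.041 with relative log expression scaling, 0.026 with no filter and 0.041 with DESeq2. The cause was not tested.

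Same-numbered mice did not deviate together in the way pairing requires: their mean correlation was 0.12, -0.01, -0.14 and -0.07 in the comparisons of ICH in Fabp4fl_fl, ICH in Fabp4CKO, genotype after ICH and genotype in sham. With the replicate number as a block Siglech was -0.042 with ICH in Fabp4CKO (adjusted p = 0.941, edgeR) and Olfml3 -0.010 between the genotypes after ICH, and Cx3cl1 was called lower with ICH in both genotypes (-1.30 and -1.35) and Il34 in Fabp4CKO (-0.85, adjusted p = 0.0477, edgeR). The block changed no other call of the 9 than that of P2ry12 with ICH in Fabp4CKO.

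Over all genes, the calls between ICH and sham in Fabp4CKO ran from 701 to 5203 higher and from 50 to 4896 lower when 1 library was left out, against 3605 and 1642 with all, and DESeq2 called 3541 lower. In Fabp4fl_fl they ran from 2633 to 4309 higher and 1465 to 3856 lower, against 3862 and 2845. In sham 0 genes were called higher and 16 lower, against 11 and 139 with DESeq2 and 1531 and 1331 without Sham-Fabp4fl_fl mouse 3. The interaction gave 2 higher and 1 lower, and 183 and 83 with DESeq2. With a prior count of 0.5 the 5 genes nearest to the mean profile stayed, and for P2ry12 Abhd4 (0.239) took the last place.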
